A study of Mus musculus with 12 samples.

Results

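Semaphorins, ephrins, Slits, netrins and their receptors were followed as 1 group of guidance genes in mouse oligodendrocyte progenitor cells. Members were chosen by gene symbol: class 3 to 7 semaphorins, plexins, neuropilins, ephrins, Eph receptors, Slits, Robos, netrins, and the netrin receptors Dcc, Neo1 and the Unc5 genes. Of 18876 genes listed in at least 1 library, 72 were members and 66 of these were listed in all 12 libraries. A filter on low counts was passed by 67 members, and Epha1, Ntn5, Robo3, Robo4 and Sema3g did not pass it, with at most 13 expected counts in any library. By family, 19 of 20 semaphorins, 9 of 9 plexins, 2 of 2 neuropilins, 8 of 8 ephrins and 13 of 14 Eph receptors could be tested. So could 3 of 3 Slits, 2 of 4 Robos, 5 of 6 netrins and 6 of 6 netrin receptors.

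RNA-seq libraries were made from primary oligodendrocyte progenitor cells of wild-type mouse brain. All cells were kept for 12 h in 1 of 4 conditions, with 3 libraries each: 50 µM hemin with 10 ng/mL interleukin-10 (IL-10) and 2.5 µM stattic (stattic replicates), 50 µM hemin with 10 ng/mL IL-10 (IL-10 replicates), 50 µM hemin alone, or the DMSO vehicle. Hemin is oxidised heme, as released from lysed red blood cells, IL-10 is a cytokine that acts through the transcription factor STAT3, and stattic inhibits STAT3. IL-10 and stattic were given only together with hemin, so neither was measured on its own, and no group received hemin and stattic without IL-10.

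Guidance cues tell a migrating cell or a growing process where to go by pulling in or pushing back its leading edge. Semaphorins signal through plexins, with neuropilins as co-receptors for the secreted class 3 members. Ephrins are membrane-bound and bind Eph receptor tyrosine kinases on the neighbouring cell, with signalling into both cells, while Slits bind Robos and netrins bind Dcc, neogenin (Neo1) and the Unc5 receptors. Progenitors of oligodendrocytes use these systems during their dispersal through the central nervous system, and several cues, among them Sema3a, Sema4d and Sema6a, have been described as acting on their migration or differentiation.

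Promoters are shown for members whose transcripts rose together in hemin against vehicle, since they are the regulatory sequences nearest to that result. Each RefSeq window of GRCm38.p6 covers 250 bases before to 50 after a transcript start, and 62 of the members matched an entry. The windows shown are those of the ephrin receptor Epha2 at chr4:141300971-141301270 on the plus strand, the ephrin Efna3 at chr3:89322890-89323189 on the minus strand and the ephrin Efnb2 at chr8:8661193-8661492 on the minus strand. Capitals mark letters of the antioxidant response element, TGANNNNGC on either strand, chosen because heme is known to induce genes through that element.
Epha2: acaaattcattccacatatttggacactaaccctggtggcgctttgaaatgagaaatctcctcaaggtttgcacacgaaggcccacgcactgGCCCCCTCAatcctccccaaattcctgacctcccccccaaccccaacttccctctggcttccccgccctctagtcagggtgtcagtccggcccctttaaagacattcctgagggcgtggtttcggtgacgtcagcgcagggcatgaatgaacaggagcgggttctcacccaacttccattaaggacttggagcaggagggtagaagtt
Efna3: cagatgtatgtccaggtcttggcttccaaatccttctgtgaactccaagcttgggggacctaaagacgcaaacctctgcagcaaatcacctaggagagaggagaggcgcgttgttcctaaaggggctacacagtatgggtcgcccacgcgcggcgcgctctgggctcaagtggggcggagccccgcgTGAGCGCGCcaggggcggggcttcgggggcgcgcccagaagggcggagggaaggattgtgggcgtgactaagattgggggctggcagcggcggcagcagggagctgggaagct
Efnb2: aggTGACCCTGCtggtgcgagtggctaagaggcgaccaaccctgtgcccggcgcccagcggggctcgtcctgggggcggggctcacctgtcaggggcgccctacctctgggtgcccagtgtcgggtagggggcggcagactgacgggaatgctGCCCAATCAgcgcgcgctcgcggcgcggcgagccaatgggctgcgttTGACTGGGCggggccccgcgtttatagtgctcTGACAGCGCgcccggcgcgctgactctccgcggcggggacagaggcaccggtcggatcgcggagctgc
The Epha2 window held 1 match, the Efna3 window shown held 1 and the Efnb2 window held 4, while the windows of Slit3 and Epha7, which also rose, held 0. These letters were in 39.7% of the 78 windows of members and in 41.3% of all 32851 promoter windows, so their presence does not set the members apart. The AP-1 letters TGANTCA, the heat shock letters GAANNTTC and the C/EBP-ATF letters TGATGNAA, searched on both strands, were in 0 windows of these genes. They were in 3.85%, 1.28% and 1.28% of member windows and in 7.81%, 7.86% and 3.97% of all windows. A match describes the letters alone.

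Depth was even, with 9404448 to 10266653 expected counts (estimated, partly fractional read numbers) in a library and 15051 to 16899 genes listed in it. Replicates of a group differed by more than counting noise in each pair. The 10 progenitor markers were all listed, and their summed level was 1025 to 2282 CPM in stattic, 1516 to 2962 CPM in IL-10, 2059 to 3104 CPM in hemin and 4895 to 7065 CPM in vehicle libraries (CPM, counts scaled to library size). Oligodendrocyte markers, all 10 listed, summed to 1494 to 11097 CPM in stattic, 1156 to 2480 CPM in IL-10, 327 to 1825 CPM in hemin and 2445 to 6661 CPM in vehicle libraries. The highest sum, in stattic replicate 2, came with 5564 CPM of Mbp, while the mature markers Mog and Aspa were at 2.16 CPM or less in every library. Astrocyte markers (10 of 10 listed) summed to 1129 to 4219, 986 to 2697, 2252 to 3190 and 2685 to 7016 CPM in stattic, IL-10, hemin and vehicle libraries. Neuron markers (12 of 12) summed to between 905 and 1553 CPM in all, but single markers moved in opposite directions. In hemin against vehicle, 4 of the 12 were higher and 2 lower at an edgeR adjusted p under 0.05 (50%, against 20.9% of all genes). Nefm was at 192 to 334 CPM in hemin and at 6.77 to 12.2 CPM in vehicle. Dcx was at 47.6 to 57.8 CPM in hemin and at 149 to 193 CPM in vehicle. Microglial markers (12 of 12) reached 147, 54.5, 149 and 32.6 CPM in stattic, IL-10, hemin and vehicle libraries. Endothelial, mural and fibroblast markers (13 of 13) summed to 56.6 to 134, 46.9 to 101, 99.3 to 418 and 11.3 to 28.2 CPM. Of these, Cldn5 was at 0.24 CPM or less everywhere, and Pecam1 was at 6.58 to 33.5 CPM in the 9 libraries with hemin and at 0.46 CPM or less in vehicle. The highest sum, 418 CPM in hemin replicate 1, came with 208 CPM of the collagen gene Col3a1. Col3a1 was at 22.5 and 23.0 CPM in hemin replicates 2 and 3. In bulk RNA, fewer cells of a type and less RNA per cell cannot be told apart, and the part of these marker shifts in the results was not tested.

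Members were long transcripts, with a median of 5294 bases against 3143 over all genes tested, and 35 of the 67 lay among the longest 20% of genes (5185 bases or more). Relative to the vehicle mean, the median of those longest genes was -0.86 on the log2 scale in stattic replicate 3 and -0.46 in hemin replicate 1. It was -0.21 to -0.09 in the other libraries that received hemin. The members that rose in hemin were 2349 to 5294 bases long and those that fell 3957 to 8174 bases.

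Compared per length, in the authors' FPKM (fragments scaled for transcript length and depth), some transmembrane semaphorins and B plexins and Neo1 stood highest in vehicle. The highest vehicle levels were those of Sema6d at 57.0 ± 6.79, Plxnb2 at 49.1 ± 1.97, Plxnb3 at 43.5 ± 11.3, Neo1 at 37.2 ± 5.61 and Sema6a at 32.3 ± 4.86 FPKM (SD, n = 3 each). The ranges of 1 SD around the means overlapped for each pair of neighbours in this order. In hemin the order was led by Plxnb2 at 30.6 ± 7.82, Sema6a at 27.8 ± 11.5, Sema6d at 27.7 ± 10.9, Efnb2 at 23.9 ± 7.11, Plxnb3 at 19.3 ± 14.6 and Epha2 at 18.1 ± 3.80 FPKM, whose ranges overlap in the same way. Epha2 stood at rank 6 of the members in hemin and at rank 46 in vehicle, where it was at 1.95 ± 1.16 FPKM.

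The member with the highest mean FPKM changed in 4 families. Epha2 led the Eph receptors in hemin and Ephb2 did so in vehicle, Efnb2 led the ephrins in hemin and Efnb1 in vehicle, Slit2 led the Slits in hemin and Slit1 in vehicle, and Sema6a led the semaphorins in hemin and Sema6d in vehicle. Of these pairs, only Epha2 and Ephb2 had ranges of 1 SD that stayed apart in both groups. The ranges overlapped for Sema6a and Sema6d in hemin (27.8 ± 11.5 and 27.7 ± 10.9 FPKM) and for Efnb1 and Efnb2 in vehicle (11.6 ± 2.15 and 9.97 ± 1.75 FPKM). For Slit2 and Slit1 they overlapped in both, at 2.54 ± 0.94 and 1.74 ± 0.82 FPKM in hemin and 1.38 ± 0.33 and 2.52 ± 0.95 FPKM in vehicle. Plxnb2, Nrp1, Robo2, Ntn1 and Neo1 led their families in both. At least 10 FPKM was reached by 11 members in stattic, 14 in IL-10, 13 in hemin and 20 in vehicle, and at least 1 FPKM by 54, 53, 54 and 56 of the 72 members.

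**Figure D1:**
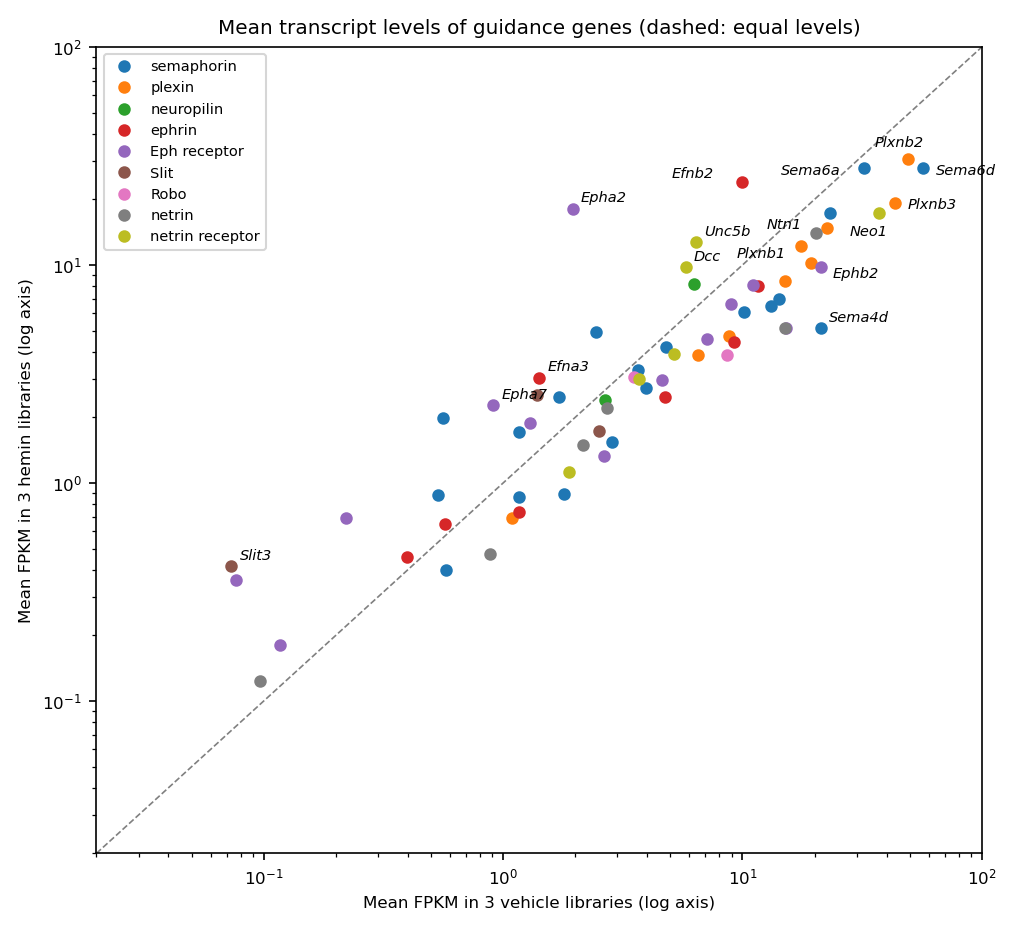
Mean FPKM of each guidance gene over 3 hemin libraries (vertical, log axis) against its mean over 3 vehicle libraries (horizontal, log axis). Points are genes coloured by family and the dashed line marks equal levels. Most points lie below the line, and Epha2, at 18.1 FPKM in hemin and 1.95 FPKM in vehicle, and Efnb2 lie above it.

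Against vehicle, hemin raised 5 and lowered 5 of the 67 members tested. The 5 that rose were the Eph receptors Epha2 and Epha7, the ephrins Efna3 and Efnb2, and the Slit ligand Slit3. The 5 that fell were the membrane semaphorins Sema4d and Sema6d, the Sema4d receptor Plxnb1, the netrin and RGM receptor Neo1, and the ephrin-B receptor Ephb2. These 10 are 14.9% of the members, while 20.9% of all genes tested were called (11.7% higher and 9.15% lower), so the share of calls was below the background. Calls are Benjamini-Hochberg adjusted p under 0.05 in edgeR's quasi-likelihood test over all genes. At an unadjusted p under 0.05 there were 23 of the 67 members, beside 35.4% of all genes. The median log2 change was -0.40 over the members and 0.03 over all genes, with 47 of 67 members below 0. With a correction for the length trend the median was -0.19 and 43 members were below 0. Hemin and vehicle libraries did not overlap for 11 members with higher and 20 with lower levels in hemin, against 25.6% and 24.5% of all genes. With library totals as the only scaling, 5 members were called higher and 9 lower (20.9%, against 21.4% of all genes).

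**Figure D2:**
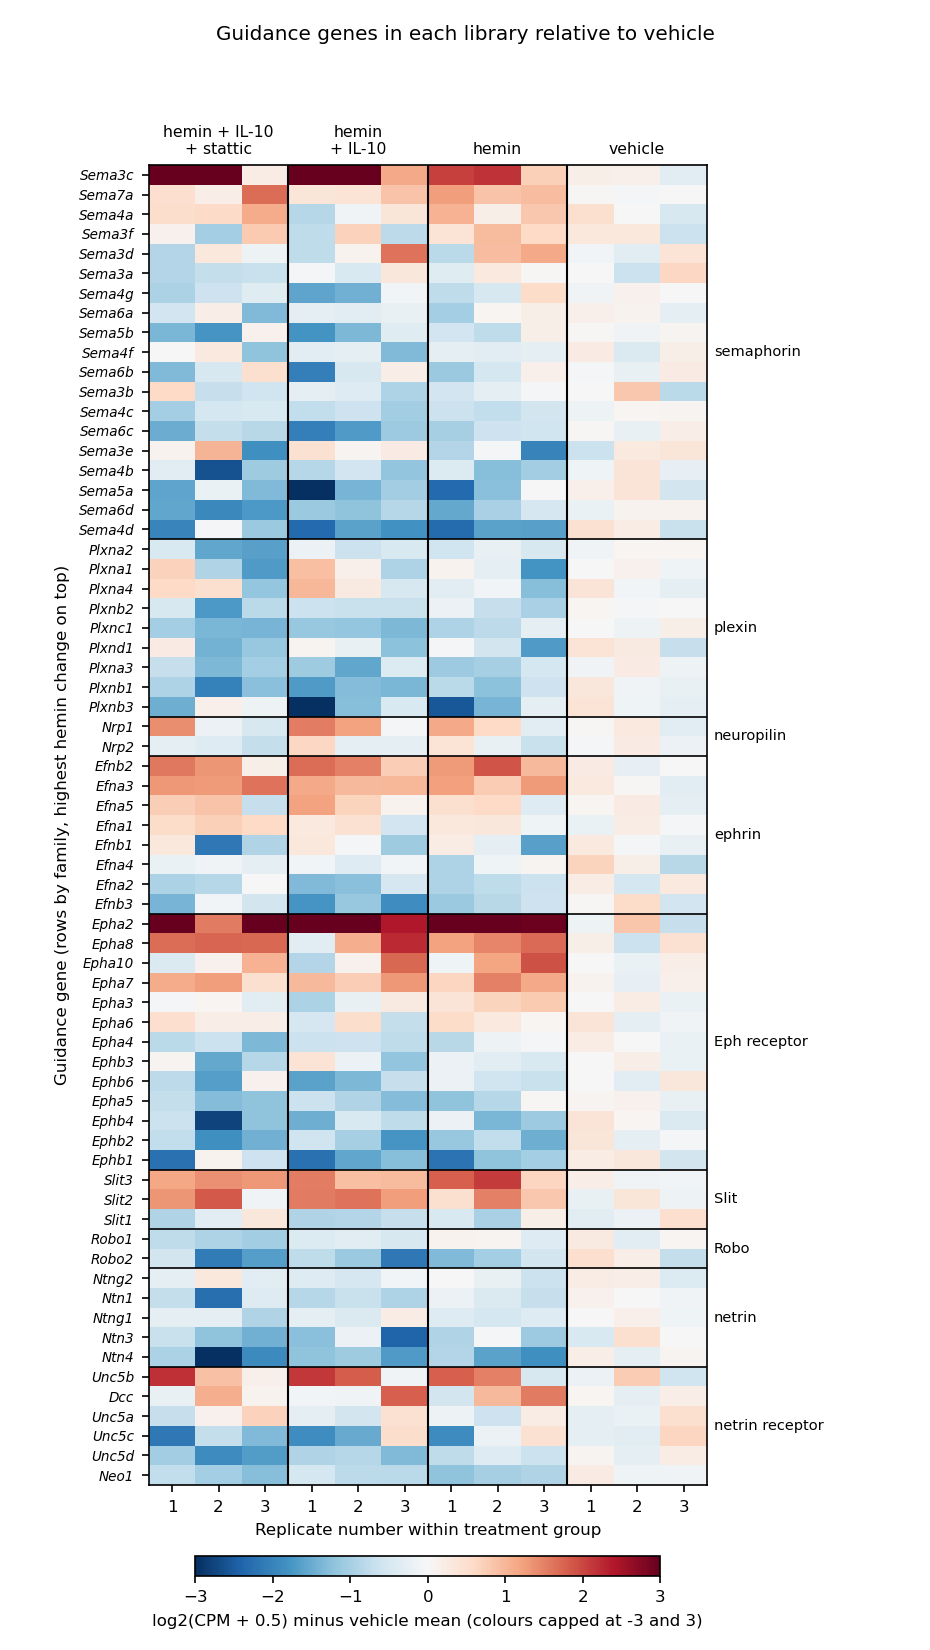
Each row is 1 of the 67 tested guidance genes, grouped by family, and each column 1 library of hemin + IL-10 + stattic, hemin + IL-10, hemin or vehicle. Colour gives log2(CPM + 0.5) minus the vehicle mean, capped at -3 and 3. Epha2 is red in all 9 libraries that received hemin, and the plexin rows are mostly blue.

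Among the ligands, 2 ephrins and 1 Slit rose. Efnb2, the transmembrane ephrin-B2, was at 106, 163 and 85.3 CPM in hemin replicates 1 to 3 and at 51.6, 36.6 and 43.0 CPM in vehicle replicates 1 to 3. Each hemin library was above each vehicle library, and the means were 118 ± 40.1 and 43.7 ± 7.54 CPM (log2 change 1.43, SE 0.38, edgeR adjusted p = 0.02002). Efna3, a lipid-anchored ephrin-A, was at 7.44, 5.23 and 7.61 CPM in hemin and at 3.62, 2.92 and 2.19 CPM in vehicle. The groups did not overlap, and the means were 6.76 ± 1.33 and 2.91 ± 0.714 CPM (log2 change 1.21, SE 0.31, edgeR adjusted p = 0.0181). Slit3, a secreted Robo ligand, was rare, at 2.38, 3.07 and 0.801 CPM in hemin and at 0.464, 0.274 and 0.286 CPM in vehicle. The vehicle values rest on 5, 3 and 3 expected counts. Slit3 thus passed the filter on low counts only through libraries that received hemin, so it could hardly be called lower. The groups did not overlap, and the log2 change was 2.57 (SE 0.58, edgeR adjusted p = 0.0112). The Efnb2 call was lost when vehicle replicate 1, 2 or 3 was left out, or hemin replicate 2 (adjusted p = 0.0532, 0.0799, 0.0708 and 0.0957) and with limma on log2(FPKM + 1) (0.0503). The Efna3 call was lost when vehicle replicate 2 or 3 was left out, or hemin replicate 3 (0.0593, 0.0759 and 0.0520), and the Slit3 call without hemin replicate 2 (0.0542) and with limma (0.0526).

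The 2 ligands that fell were semaphorins. Sema4d, which oligodendrocyte lineage cells are known to display and which signals through Plxnb1, was at 14.1, 23.3 and 22.8 CPM in hemin and at 97.5, 83.1 and 45.0 CPM in vehicle. Every hemin library lay below every vehicle library, and the means were 20.1 ± 5.18 and 75.2 ± 27.1 CPM (log2 change -1.91, SE 0.46, edgeR adjusted p = 0.0137). Sema6d, a transmembrane ligand of A plexins, was at 109.96, 163 and 226 CPM in hemin and at 278, 346 and 344 CPM in vehicle. It was lowest in hemin replicate 1, and the groups did not overlap (log2 change -0.96, SE 0.26, edgeR adjusted p = 0.0210). The Sema4d call was lost without vehicle replicate 1 (adjusted p = 0.0539). The Sema6d call was lost when vehicle replicate 2 or 3 was left out, or hemin replicate 1 or 2 (0.0665, 0.0668, 0.0617 and 0.0766). Vehicle replicate 3, the vehicle library with the least Sema4d, also had the lowest oligodendrocyte marker sum of the 3 vehicle libraries, 2445 CPM, and the part of those cells in the Sema4d result was not tested.

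Among the receptors, Epha2 changed most. Epha2, a receptor tyrosine kinase for ephrin-A ligands, was at 86.8, 70.0 and 51.5 CPM in hemin and at 5.57, 11.6 and 3.71 CPM in vehicle. The lowest hemin library stood well above the highest vehicle library, and the means were 69.4 ± 17.6 and 6.96 ± 4.13 CPM, a fitted 9.95-fold difference (log2 change 3.31, SE 0.56, edgeR adjusted p = 0.00296). Epha7, another receptor for ephrin-A ligands, was at 7.93, 15.0 and 11.3 CPM in hemin and at 5.29, 4.02 and 5.52 CPM in vehicle. The groups did not overlap (log2 change 1.20, SE 0.33, edgeR adjusted p = 0.0251), but the call was lost when vehicle replicate 1, 2 or 3 was left out, or hemin replicate 2 or 3 (0.0716, 0.0951, 0.0625, 0.118 and 0.0524) and with limma on log2(FPKM + 1) (0.0501).

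3 receptors fell. Neo1 was at 107, 122 and 131 CPM in hemin and at 292, 225 and 229 CPM in vehicle. The groups stood apart with little spread, at means of 119.97 ± 12.2 and 249 ± 37.6 CPM (log2 change -1.05, SE 0.21, edgeR adjusted p = 0.00594). Ephb2, a receptor for ephrin-B ligands, was at 54.5, 71.6 and 43.6 CPM in hemin and at 156, 97.8 and 115 CPM in vehicle. The groups did not overlap (log2 change -1.12, SE 0.35, edgeR adjusted p = 0.0411). Plxnb1 was at 85.4, 63.4 and 97.3 CPM in hemin and at 187, 137 and 128 CPM in vehicle, again without overlap (log2 change -0.88, SE 0.28, edgeR adjusted p = 0.0457). Of the 10 members called, Epha2 and Neo1 kept their call in all 12 fits that left out 1 library. The Ephb2 call was lost when any 1 vehicle or hemin library was left out, or IL-10 replicate 2 (adjusted p = 0.1503, 0.0606 and 0.0856 for vehicle replicates 1 to 3, 0.0986, 0.0651 and 0.120 for hemin replicates 1 to 3, and 0.0601), and with the length correction (0.0806) or without the 2 libraries of the steepest length trend (0.0858). The Plxnb1 call was lost when any 1 vehicle, hemin or IL-10 library was left out (0.166, 0.0814 and 0.0698 for vehicle, 0.0863, 0.165 and 0.0554 for hemin, and 0.0522, 0.0629 and 0.0527 for IL-10 replicates 1 to 3). It was also lost with the length correction (0.243) and without those 2 libraries (0.0703).

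**Figure D3:**
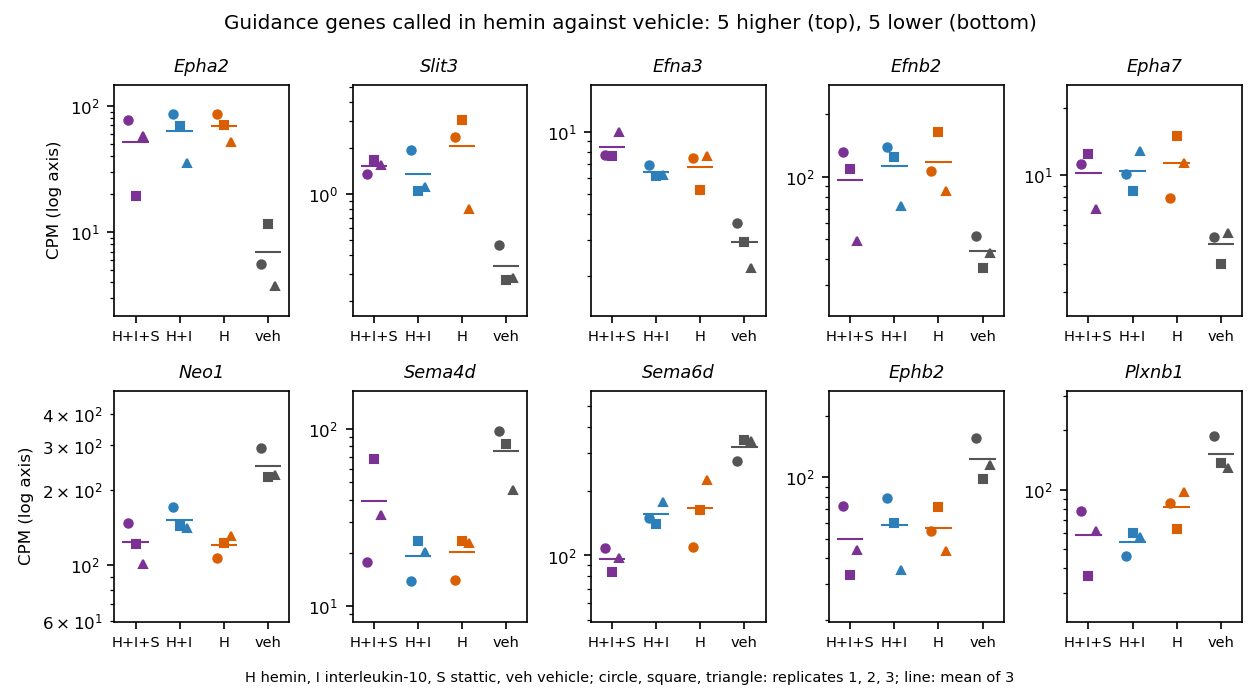
Level of each of the 10 members called in hemin against vehicle, in CPM on a log axis, in every library. Circles, squares and triangles are replicates 1, 2 and 3 and lines are group means of 3. The 3 vehicle libraries of Epha2 lie at 3.71 to 11.6 CPM and the hemin libraries at 51.5 to 86.8 CPM, and the Neo1 groups are likewise apart.

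Of 21 members described as acting on oligodendrocyte lineage cells, 0 rose and 3 fell in hemin, namely Sema4d, Neo1 and Ephb2 (14.3%, against 20.9% of all genes). The other 18 were not called. The class 3 semaphorins Sema3a and Sema3f, known as a repellent and an attractant of these progenitors, averaged 18.4 ± 4.25 and 6.15 ± 1.30 CPM in hemin, against 19.5 ± 8.57 and 3.86 ± 1.45 CPM in vehicle (edgeR adjusted p = 0.886 and 0.441). Their co-receptors Nrp1 and Nrp2 averaged 48.1 ± 22.5 and 14.8 ± 5.76 CPM in hemin and 32.2 ± 6.86 and 15.9 ± 2.58 CPM in vehicle (0.474 and 0.859). Plxna4, a signalling partner of Nrp1, averaged 8.80 ± 3.60 CPM in hemin and 12.7 ± 3.28 CPM in vehicle (0.501). For all 5 the 95% confidence interval of the log2 change held 0, and it reached from -0.59 to 1.74 for Nrp1.

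All 9 plexins tested had a negative log2 change in hemin against vehicle, with a median of -0.66, also under both other scalings, with the length correction and without the 2 libraries of the steepest length trend. Only Plxnb1 was called, and Plxnc1, the receptor of Sema7a, and Plxna3 missed the threshold at -0.66 and -0.87 (edgeR adjusted p = 0.0583 and 0.0593). Sema7a itself, a lipid-anchored semaphorin, had a log2 change of 1.08 (0.0590). Sema5a and its receptor Plxnb3 averaged 63.4 ± 48.7 and 108 ± 78.7 CPM in hemin against 122 ± 37.6 and 241 ± 62.5 CPM in vehicle (0.281 and 0.257). Sema6a, a transmembrane semaphorin of oligodendrocyte lineage cells, averaged 189 ± 73.8 and 215 ± 33.4 CPM (0.751).

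In the netrin, Slit and remaining ephrin systems no other member passed in hemin. The 5 netrins tested all had negative log2 changes, Ntn1, a secreted cue for these progenitors, averaging 79.7 ± 14.1 CPM in hemin and 107 ± 9.50 CPM in vehicle (edgeR adjusted p = 0.431). Ntn4, a netrin of basement membranes, was at -1.43 (0.0528). The netrin receptors Dcc, Unc5a and Unc5b averaged 98.2 ± 60.4, 11.5 ± 3.47 and 75.0 ± 46.5 CPM in hemin and 53.0 ± 8.71, 13.1 ± 4.21 and 34.3 ± 17.7 CPM in vehicle (0.303, 0.778 and 0.269). Of the Slit system, Slit2, Slit1, Robo1 and Robo2 had log2 changes of 1.00, -0.39, -0.07 and -1.04 (0.117, 0.503, 0.865 and 0.133). Of the ephrin system, Efnb1, Efnb3, Epha3 and Epha4 were at -0.39, -0.94, 0.64 and -0.33 (0.671, 0.101, 0.197 and 0.383). Low members can carry wide intervals, as for the ephrin-A receptor Epha8, at 1.64 CPM in hemin and 0.314 CPM in vehicle with a log2 change of 2.35 (0.0992).

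Guidance genes also differed from vehicle where IL-10, or IL-10 with stattic, was given with hemin. Because all 3 comparisons use the same vehicle libraries, their values are set side by side and not compared as independent evidence. In hemin with IL-10 and stattic, 6 members rose and 16 fell (32.8% of 67, against 24.9% of all genes, 14.7% higher and 10.2% lower). In hemin with IL-10, 7 rose and 12 fell (28.4%, against 21.0% of all genes, 12.1% higher and 8.81% lower). The median log2 changes of members were -0.49 with stattic and -0.44 with IL-10, beside 0.10 and 0.00 over all genes. With library totals as the only scaling the splits were 4 higher and 20 lower with stattic and 5 higher and 17 lower with IL-10, and the medians of all genes were then -0.14 and -0.13. The members' shares were then 35.8% and 32.8%, against 25.9% and 21.4% of all genes. With the length correction the splits were 8 higher and 6 lower with stattic (20.9%, against 23.6% of all genes) and 7 higher and 12 lower with IL-10 (28.4%, against 26.3%), so the stattic share was then below that of all genes and the IL-10 share close to it. Across the 3 comparisons 26 members were called at least once (38.8%, against 31.8% of all genes), 7 only as higher and 19 only as lower (10.4% and 28.4%, against 18.05% and 13.7% of all genes). Of all genes tested, members included, 0 were called in opposite directions.

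9 members were called in all 3 comparisons (13.4%, against 14.0% of all genes). Epha2 was at 77.9, 19.3 and 58.1 CPM in stattic replicates 1 to 3 and at 86.9, 69.3 and 35.0 CPM in IL-10 replicates 1 to 3, with log2 changes of 2.89 and 3.19 over vehicle (edgeR adjusted p = 0.00469 and 0.00350). All 6 libraries were above the highest vehicle library, at 11.6 CPM. Efna3 was at 7.76, 7.65 and 9.96 CPM with stattic and at 6.91, 6.11 and 6.16 CPM with IL-10, with changes of 1.53 and 1.13 (0.00602 and 0.0246). Efnb2 was at 132, 109 and 49.2 CPM with stattic and at 138, 125 and 72.2 CPM with IL-10, with changes of 1.14 and 1.35 (0.0429 and 0.0257). Stattic replicate 3 was the 1 library of these that fell within the vehicle range for Efnb2. Slit3, which passed the filter only through libraries with hemin, rose by 2.13 and 1.96 on the log2 scale with stattic and with IL-10. Epha7 rose by 1.05 and 1.09.

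The 4 members lower throughout were Sema6d, Neo1, Ephb2 and Plxnb1. Sema6d was at 108, 83.4 and 97.0 CPM with stattic and at 149, 139.6 and 179 CPM with IL-10, with log2 changes of -1.75 and -1.05 (edgeR adjusted p = 0.00158 and 0.0150). All 6 libraries were below the lowest vehicle library, at 278 CPM. Neo1 was at 148, 121 and 101 CPM with stattic and at 171, 143 and 140.1 CPM with IL-10 (-1.01 and -0.72, 0.00649 and 0.0301). Plxnb1 was at 78.1, 36.3 and 61.8 CPM with stattic and at 45.9, 60.02 and 57.3 CPM with IL-10 (-1.36 and -1.47, 0.00728 and 0.00575), and Ephb2 had log2 changes of -1.31 and -1.08 (0.0208 and 0.0468). The Plxnb1 call with stattic was lost with the length correction (0.109), and that of Ephb2 in both groups (0.0699 with stattic and 0.0672 with IL-10).

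Sema3c, a secreted semaphorin that binds neuropilins, rose in both groups that received IL-10. It was at 27.6, 32.9 and 3.00 CPM with stattic, 39.8, 28.3 and 6.06 CPM with IL-10, 12.0, 13.0 and 4.41 CPM in hemin, and 2.88, 2.83 and 1.90 CPM in vehicle. Replicate 3 was the lowest library of each group. On this scale every library with hemin was above every vehicle library, but stattic replicate 3 was within the vehicle range in FPKM, at 0.49 beside 0.64, 0.63 and 0.42 FPKM in vehicle, and with library totals as the only scaling. The log2 changes over vehicle were 3.05, 3.28 and 1.94 in stattic, IL-10 and hemin (edgeR adjusted p = 0.0213, 0.0188 and 0.108). On adding IL-10 to hemin its log2 change was 1.33 (95% interval -0.33 to 3.00), which did not pass the test. Both Sema3c calls were lost when any 1 vehicle library was left out (0.0696, 0.0624 and 0.0783 with stattic and 0.0665, 0.0568 and 0.0716 with IL-10 for vehicle replicates 1 to 3). They were also lost without stattic replicate 2 (0.0596), and without IL-10 replicate 1 or 2 (0.0594 and 0.0550).

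The other calls in 1 or both of these groups were mostly receptors. Slit2 rose with IL-10, at 37.4, 39.6 and 30.3 CPM against 10.7, 16.2 and 11.2 CPM in vehicle (log2 change 1.49, edgeR adjusted p = 0.0304). Plxnc1, Plxna3, Unc5d, Sema4c and Sema6c fell in both groups, with log2 changes of -1.28, -1.03, -1.59, -0.66 and -1.06 with stattic and of -1.24, -0.96, -1.07, -0.81 and -1.71 with IL-10. Plxnc1 was the tightest of them, at 21.2, 16.6 and 16.1 CPM with stattic and 19.3, 19.2 and 16.6 CPM with IL-10, against 43.0, 38.7 and 48.8 CPM in vehicle. With stattic the netrin Ntn4, the Slit receptors Robo1 and Robo2, the plexins Plxna2 and Plxnb2 and the ephrin receptors Epha4 and Epha5 also fell, with log2 changes of -1.81, -0.95, -1.39, -1.12, -0.92, -0.92 and -1.07. With IL-10 the membrane ligands Sema4d and Efnb3 and the receptor Ephb1 also fell, with log2 changes of -1.98, -1.68 and -1.71. With stattic, these 3 were at 39.5 ± 25.9, 16.8 ± 7.38 and 40.1 ± 27.0 CPM, against 75.2 ± 27.1, 26.7 ± 10.3 and 64.6 ± 19.4 CPM in vehicle, and were not called (0.143, 0.221 and 0.338). Their highest stattic value was in each case in replicate 2, the library with the oligodendrocyte marker sum of 11097 CPM, and the part of that shift was not tested.

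Many of these calls were lost without 1 library, and so were those of all genes. Of 22 members called with stattic, Efna3, Epha2, Neo1, Plxnb1, Plxnc1, Sema6d and Unc5d kept the call in all 12 fits that left out 1 library. Of 19 called with IL-10, Epha2, Plxnb1, Plxnc1 and Sema6c did. Without vehicle replicates 1, 2 and 3 in turn, 2, 2 and 2 members were higher and 5, 9 and 7 lower with stattic, and 2, 1 and 1 were higher and 5, 5 and 6 lower with IL-10. The members' shares in these 3 fits were 10.4%, 16.4% and 13.4% with stattic, against 11.3%, 14.2% and 12.3% of all genes, and 10.4%, 8.96% and 10.4% with IL-10, against 8.43%, 11.9% and 10.3%. Without stattic replicate 2, 3 were higher and 9 lower with stattic (17.9%, against 19.0% of all genes). Without IL-10 replicates 1 and 2 in turn, 2 and 1 were higher and 7 and 5 lower with IL-10 (13.4% and 8.96%, against 12.4% and 8.92% of all genes). For the calls lost, the adjusted p without the library reached 0.169 with stattic and 0.178 with IL-10. With the length correction, Epha5, Plxna2, Plxna3, Plxnb2, Robo1, Robo2, Sema4c and Sema6c were also not called with stattic (0.0896 to 0.363), nor Plxna3 and Unc5d with IL-10 (0.0761 and 0.0632). Without the 2 libraries of the steepest length trend, Ephb2, Plxna3, Robo2 and Sema6c were not called with stattic (0.0582, 0.0546, 0.123 and 0.0522), nor Ephb2 with IL-10 (0.0538). With library totals as the only scaling, Efnb2 and Epha7 were not called with stattic (0.0905 and 0.101), nor Epha7 and Slit2 with IL-10 (0.0766 and 0.0547). Limma on log2(FPKM + 1) did not call Efnb2, Epha7, Sema3c or Slit3 with stattic (0.0981 to 0.191), nor Efnb2, Epha7, Sema3c, Slit2 or Slit3 with IL-10 (0.0643 to 0.200). With no filter on low counts, Epha7, Sema4c and Sema6c were not called with stattic (0.0556, 0.0561 and 0.0570), nor Epha7 with IL-10 (0.0519), and with DESeq2 size factors Robo2 was not called with stattic (0.0504), nor Ephb2 with IL-10 (0.0521).

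**Figure D4:**
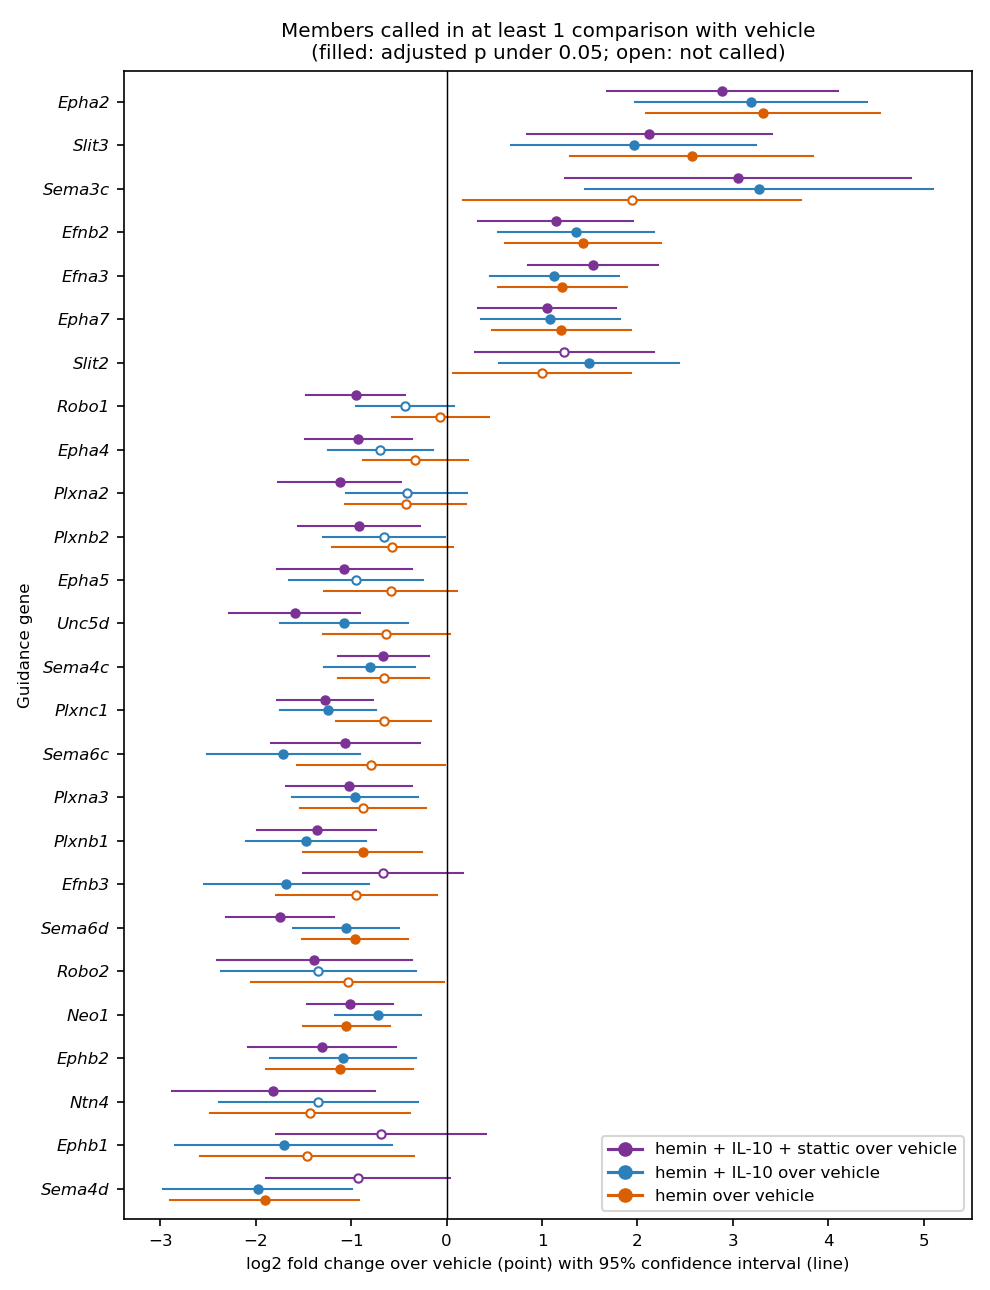
Log2 fold change over vehicle (horizontal) with its 95% confidence interval for the 26 members called at least once, in hemin + IL-10 + stattic, hemin + IL-10 and hemin. Filled points are called at an adjusted p under 0.05 and open points are not. The 3 estimates of a gene lie on the same side of 0 throughout, and Epha2 is highest in hemin at 3.31.

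The steps between the hemin groups gave no call among the members. With IL-10 added to hemin, edgeR, DESeq2 and limma each called 0 of the 67, and 3 members had an unadjusted edgeR p under 0.05, with 2.41% of all genes. In the whole table edgeR called 0% of 13967 genes in this step. With the replicate block, with no filter on low counts or without stattic replicate 1, edgeR called 1 gene. DESeq2 called 3, and no member was among any of these. The 3 members were Epha3 at -0.89 (95% interval -1.63 to -0.14), Plxnc1 at -0.58 (-1.08 to -0.08) and Sema6c at -0.92 (-1.72 to -0.12). Epha3, an ephrin-A receptor, was at 3.24, 5.69 and 8.08 CPM with IL-10 and at 8.82, 10.9 and 11.8 CPM in hemin, without overlap. IL-10 and hemin libraries did not overlap for 2 members with higher and 8 with lower levels, against 3.61% and 5.08% of all genes.

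With stattic added to hemin and IL-10, edgeR, DESeq2 and limma again called 0 members. An unadjusted edgeR p under 0.05 was reached by 6 of the 67, beside 3.74% of all genes, and edgeR called 0% of all genes. The lowest p were those of Sema6d at -0.70 (95% interval -1.25 to -0.14), Efnb3 at 1.01 (0.15 to 1.86) and Plxna2 at -0.70 (-1.34 to -0.06). Sema6d was the tightest of the 3, with stattic libraries at 83.4 to 108 CPM below all IL-10 libraries at 139.6 to 179 CPM. Between stattic and hemin, 0 members passed by any of the 3 tools. An unadjusted edgeR p under 0.05 was reached by 9 of the 67 members, beside 3.44% of all genes. The main edgeR fit called 0% of all genes. It called 1 gene with the replicate block, with no filter on low counts or without stattic replicate 1, and DESeq2 called 1. No member was among these. Robo1, Sema6d and Unc5d came first at -0.89, -0.79 and -0.96, with intervals of -1.40 to -0.37, -1.34 to -0.23 and -1.64 to -0.28. Robo1, a Slit receptor, was at 14.4, 12.8 and 11.8 CPM with stattic, 18.5, 19.8 and 17.5 CPM with IL-10, 26.8, 26.2 and 18.9 CPM in hemin and 30.0, 19.6 and 25.9 CPM in vehicle. Sema6d, Plxna2, Robo1 and Unc5d, of 6175 to 10831 bases, are among the longest 20% of genes, and Efnb3, of 3274 bases, is not. The median of those longest genes was -0.86 in stattic replicate 3, and these estimates carry no length correction.

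For the 10 members called in hemin against vehicle, the change on adding IL-10 was -0.60 to 0.34 on the log2 scale, and the change on adding stattic to both was -0.70 to 1.05. The 95% intervals reached from -1.73 to 0.98 in the first step and from -1.41 to 2.03 in the next. The missing calls do not show that IL-10 or stattic left these genes unchanged.

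Replicates differed most in the groups that received hemin. Over 55 members with a mean of at least 5 CPM, the median SD of log2(CPM + 0.5) was 0.69 in stattic, 0.47 in IL-10, 0.44 in hemin and 0.28 in vehicle. The 7 members with the widest spread, picked after their values were seen, were Sema3c, Unc5b, Plxnb3, Unc5c, Sema5a, Sema3d and Plxna1. Plxnb3 was at 84.7, 263 and 213 CPM with stattic, 18.9, 96.7 and 172 CPM with IL-10, 40.4, 89.8 and 194 CPM in hemin and 313, 216 and 196 CPM in vehicle. Sema5a, its ligand, was at 39.4, 104 and 46.6 CPM, 14.6, 45.0 and 57.3 CPM, 23.1, 49.5 and 118 CPM, and 131, 155 and 81.1 CPM in the same groups. In hemin both were lowest in replicate 1, the library with the lowest oligodendrocyte marker sum, 327 CPM. Unc5b, a netrin receptor, was lowest in replicate 3 of every group, at 35.2, 29.3, 22.5 and 20.7 CPM in stattic, IL-10, hemin and vehicle.

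**Figure D5:**
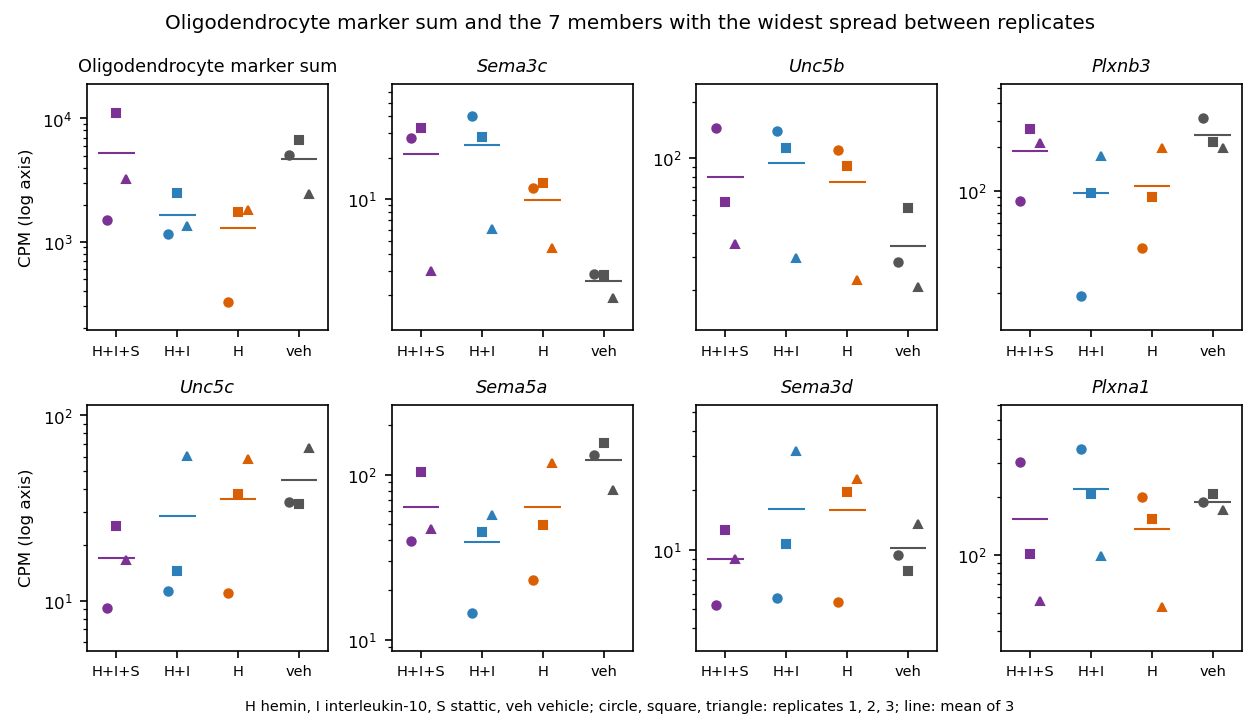
Summed level of 10 oligodendrocyte markers and of the 7 guidance genes with the widest spread between replicates, in CPM on log axes, by library. Circles, squares and triangles are replicates 1, 2 and 3 and lines are group means of 3. Unc5b is lowest in replicate 3 of each group, and the marker sum is highest, at 11097 CPM, in replicate 2 of hemin + IL-10 + stattic.

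Cytoplasmic effectors act downstream of these receptors. Of 46 effectors tested, 2 rose and 6 fell in each comparison with vehicle (17.4%, against 24.9% of all genes with stattic, 21.0% with IL-10 and 20.9% in hemin). Calls of effectors, and of the other cues and co-receptors below, are from the main edgeR fit alone. Whether they hold with a library left out or with the length correction was not tested. Mical1, which oxidises actin below plexins, averaged 23.98 ± 7.32 CPM in hemin and 12.0 ± 0.828 CPM in vehicle (log2 change 1.00, edgeR adjusted p = 0.0243). Rnd1, a small GTPase that binds plexins, averaged 26.8 ± 8.84 and 7.58 ± 1.16 CPM (1.82, 0.0347). The effectors that fell in hemin were the Slit-Robo GTPase activators Srgap2 and Srgap3 at -0.82 and -1.42, the kinase Abl1, which acts below Robos, at -1.11, the Rac activator Dock1 at -0.89, the filopodial motor Myo10 at -1.37 and the cofilin kinase Limk2 at -0.76. Srgap3 averaged 78.2 ± 25.7 CPM in hemin and 209.8 ± 12.4 CPM in vehicle (0.00386). With stattic the same 8 effectors were called, and with IL-10 Dpysl4 and Dpysl5 fell (-1.32 and -1.53) and Srgap2 and Myo10 were not called.

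Of 25 other cues and co-receptors, 3 rose and 3 fell with stattic (24%, against 24.9% of all genes), 3 rose and 6 fell with IL-10 (36%, against 21.0%), and 2 rose and 3 fell in hemin (20%, against 20.9%). Rgma, a lipid-anchored ligand of Neo1, averaged 17.2 ± 10.1 CPM with stattic, 18.2 ± 6.06 CPM with IL-10, 21.4 ± 5.94 CPM in hemin and 107 ± 44.6 CPM in vehicle (log2 changes over vehicle -2.64, -2.56 and -2.32, edgeR adjusted p = 0.00403, 0.00506 and 0.00747). It thus fell beside its receptor Neo1 in all 3. Draxin, a secreted cue that binds Dcc and netrin-1, averaged 1.60 ± 0.542, 1.08 ± 0.235, 2.13 ± 1.03 and 10.9 ± 3.43 CPM in the same order, with changes of -2.76, -3.32 and -2.35 (0.00286, 0.00153 and 0.00563). Chl1, an adhesion protein of the L1 family, fell, with log2 changes of -2.57, -2.26 and -1.79. Flrt3, a membrane ligand of Unc5 receptors, rose by 1.17, 1.27 and 1.68, averaging 73.9 ± 32.4 CPM in hemin and 23.1 ± 7.45 CPM in vehicle. Kdr, a receptor for VEGF, rose by 2.16, 3.32 and 2.41, but is also an endothelial marker, and Pecam1 of the same marker list was higher in these libraries as well; its part was not tested. In the steps between the hemin groups, 0 genes of both lists were called.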

How the data were processed

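RNA-seq of 12 mouse libraries was used, 3 per treatment, made with dUTP in the second strand per the labels' protocols. Per the submitters' processing notes, Bowtie, Bowtie2, CASAVA, Cufflinks, HISAT, RSEM, StringTie and TopHat were used, with no version, role or order. The build was not given in the sources used here. Per the file headers, the authors' files give each gene an expected count, taken as not normalised because totals differ between libraries, and an FPKM value, scaled for length and depth. A file lists no gene without reads, so absent genes were set to 0. Whether counting used strand is not stated, so antisense and overlapping genes cannot be told apart.

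Expected counts were rounded and tested with edgeR 4.0.16 in R 4.3.3 (filterByExpr, TMM factors, robust quasi-likelihood fit to all 12 libraries with 1 mean per group). This covered 13967 genes, with Benjamini-Hochberg adjustment over all of them and calls at an adjusted p under 0.05. CPM used the TMM factors. The code was tested on simulated data. Alternatives were DESeq2 1.42.0, limma 3.58.1 on log2(FPKM + 1) or log2(FPKM + 0.1), other scalings, no filter, a correction for transcript length, a replicate block, and leaving out each library.

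The members, lists and rules were chosen with earlier results of these data known. Named members are those called in a comparison, the 3 lowest p where none was, the highest FPKM of each family, and members described in oligodendrocyte lineage cells. Sema7a, Epha8 and the members named for their spread were chosen after their values were seen. Nothing in the labels ties a replicate to its own culture or animal, and p-values thus reflect the spread of these samples, possibly technical. Deviations of libraries with the same replicate number correlated at 0.37, 0.17 and 0.61 for hemin with IL-10 set against hemin. For hemin with IL-10 and stattic set against hemin the values were 0.35, 0.39 and 0.17. In these 2 comparisons every value was over 0.1, and in the other 4 at least 1 value was lower. The main edgeR fit used no replicate term in any comparison, so none was paired in it. The replicate block was run only as an alternative.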

Additional observations from a re-analysis of the deposited data

How the results depend on the processing

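Directions held in every alternative run for each named member and comparison called in the edgeR fit, and 0 results reversed. The 6 counts of members called in the steps between hemin groups stayed at 0 throughout. In hemin against vehicle, the members higher and lower (5 and 5) became 8 and 10 with DESeq2 (25% of members, against 21.6% of all genes), 8 and 9 with the replicate block (25.4%, against 28.6%), and 9 were lower with library totals alone. Limma on log2(FPKM + 1) called 3 higher and 7 lower (14.9%, against 20.0% of all genes). Without the filter it called 3 higher and 5 lower (11.1%, against 13.7%). With IL-10 against vehicle (7 and 12), limma called 2 higher and 18 lower at a pseudocount of 1 or 0.1. That was 29.9% of members, against 19.5% and 20.7% of all genes. Without the filter limma called 2 higher and 12 lower (19.4%, against 12.6%). The replicate block gave 8 higher and 21 lower (43.3% of members, against 28.1% of all genes). With stattic against vehicle (6 and 16), the same 3 limma settings each called 2 higher and 19 lower. These were 31.3%, 31.3% and 29.2% of members, against 24.2%, 26.2% and 15.9% of all genes. The length correction gave 8 higher and 6 lower (20.9%, against 23.6%). The cause was not tested. For single named members, 1068 recomputed values kept their side of the threshold and 252 lost a call in the same direction. The 1068 include the 3 lowest-p members of each step between hemin groups, which were not called and so had no call to lose.

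Leaving out 1 library gave 2 to 8 higher and 2 to 9 lower in hemin, 1 to 7 and 5 to 16 with IL-10, and 2 to 7 and 5 to 17 with stattic. The members' shares were 5.97% to 25.4%, 8.96% to 34.3% and 10.4% to 34.3% in this order. Those of all genes also varied widely, at 9.20% to 29.8%, 8.43% to 29.6% and 11.3% to 27.1%. Same-numbered deviations correlated at 0.15, 0.078 and 0.32 between hemin and vehicle, at 0.045, 0.19 and 0.37 between IL-10 and vehicle, at 0.20, 0.096 and 0.28 between stattic and vehicle, and at 0.64, -0.046 and 0.48 between stattic and IL-10. In each of these comparisons 1 value was under 0.1, and what the numbers mark is not known from the labels. Between IL-10 and hemin and between stattic and hemin, where every value was higher, adding the replicate block changed no member's call. Depth limits low members such as Slit3, at 3 to 5 expected counts in vehicle libraries.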
